A study of Brassica napus and Orychophragmus violaceus with 4 samples.

Results

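The carotenoid and xanthophyll synthesis genes described here were the *B. rapa* gene copies that the deposited read table assigned to 17 Arabidopsis genes, which run the pathway from phytoene to the esterified petal xanthophylls. Of the 17 genes, 16 had at least 1 copy, giving 31 copies among the 37441 genes of the table, and LUT1, which hydroxylates the epsilon ring, was not analysed here. Copies were taken by their Arabidopsis match. No expression threshold was added, but the table lists only genes with at least 1 read over the 4 libraries. Petals of half-open flowers were taken from 4 greenhouse-grown plant materials, with 1 RNA-Seq library each and therefore no replicates. M4 was a disomic addition line of *B. napus* that carried a pair of *O. violaceus* chromosomes and had red on yellow petals, and H3 was its *B. napus* parent cultivar Huashuang 3, with yellow petals. OvP was wild-type *O. violaceus* with purple petals, and OvW was its natural white-petalled mutant. M4 and H3 share the cultivar background and differ in the whole added chromosome pair, and the deposited labels do not say how many plants gave each library.

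Reads of both organisms had been mapped to *B. rapa* genes, and the libraries held 15507389 gene reads for M4, 16447021 for H3, 1850787 for OvP and 2040729 for OvW. A count of 0, taken as up to 3 reads, allowed up to 0.193, 0.182, 1.62 and 1.47 CPM (reads scaled to the library total) for M4, H3, OvP and OvW in that order. Between the organisms, a lower level in *O. violaceus* and poorer mapping of its reads to a *B. rapa* copy cannot be told apart. Reads from the C subgenome of *B. napus* were also counted on the *B. rapa* copies, so near-identical copies are not cleanly separated. Intervals are 95% exact Clopper-Pearson intervals and cover counting error only, and each test within an organism compares 2 libraries, not 2 conditions.

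Carotenoids are made in plastids. Phytoene synthase joins geranylgeranyl diphosphate into phytoene, desaturases and isomerases turn it into red lycopene, and lycopene cyclases close its ends into beta or epsilon rings. Hydroxylases add oxygen to the rings to give yellow xanthophylls, epoxidation leads on to violaxanthin and neoxanthin, and in petals xanthophylls are stored in plastoglobules of chromoplasts, largely as fatty acid esters. The yellow of *B. napus* petals comes from xanthophylls, whereas purple and red come from anthocyanins, which are made by a separate pathway.

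The 31 copies together took 0.625% of the gene reads in M4 (0.621% to 0.629%, 96905 reads) and 0.578% in H3 (0.574% to 0.582%, 95075 reads). They took 0.0591% in OvP (0.0557% to 0.0627%, 1094 reads) and 0.0556% in OvW (0.0524% to 0.0589%, 1134 reads). The petals of the yellow *B. napus* materials thus gave these genes a share of their reads that lay far above that in either *O. violaceus* library. The intervals hold counting error of single libraries only. They did not overlap between M4 and H3 either, so they do not measure a difference between the organisms. Summed deposited RPKM, which is scaled to gene length and library, reached 4402 for M4 and 3864 for H3, against 415 for OvP and 387 for OvW. The copy with the highest RPKM was phytoene synthase Bra006391 in M4 (946) and H3 (642), and zeta-carotene desaturase Bra040411 in OvP (73.2) and OvW (90.9). At least 1 read was found on 29 copies for M4, 30 for H3, 24 for OvP and 24 for OvW.

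**Figure D1:**
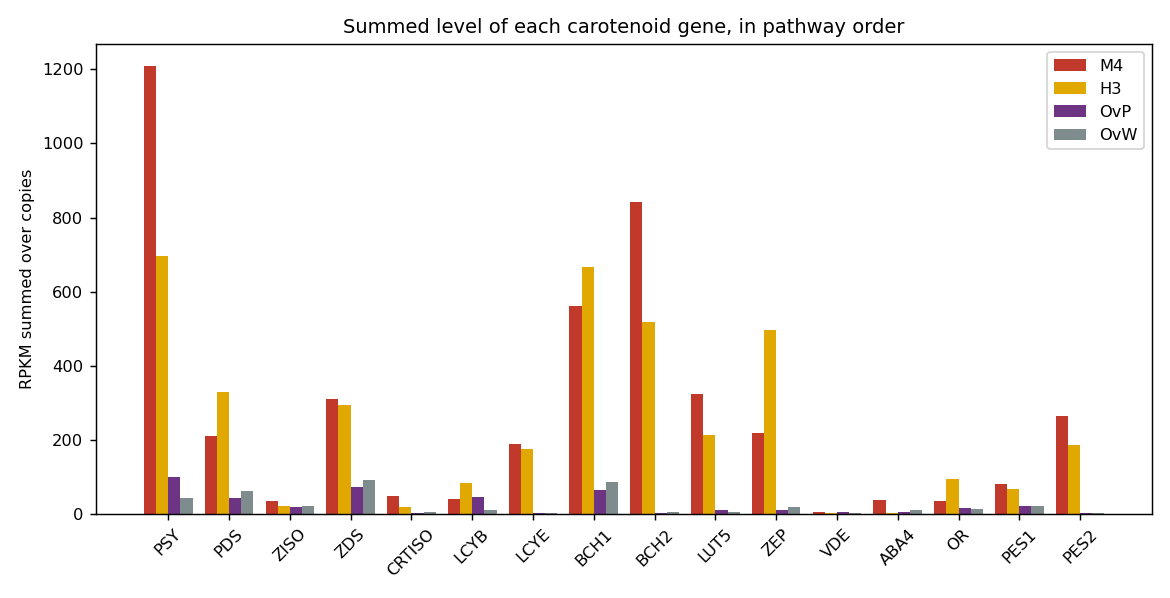
Bars give the deposited RPKM summed over the copies of each of 16 genes, in pathway order along the x axis, for the single libraries of M4, H3, OvP and OvW, with no error bars because each material had 1 library. The tallest bars are PSY in M4 (1208) and BCH2 in M4 (843), while no gene passes 98.9 in OvP or 90.9 in OvW.

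For the comparison of yellow *B. napus* petals with *O. violaceus* petals, the 27 copies with at least 10 reads over the 4 libraries were used, and the other 4 copies fell below this filter. All 27 reached 10 reads in M4 and H3 together, but only 19 did so in OvP and OvW together. The rest, among them Bra006838, Bra003121 and Bra032957, passed through the deeper *B. napus* libraries alone, so their place in the counts below is partly set by the filter. In 18 of the 27, the lower of M4 and H3 was at least 2-fold above the higher of OvP and OvW in TMM-scaled reads, and in 0 was it the other way round. Over all 28246 genes passing the same filter, such a gap was found towards *B. napus* in 25.5% and towards *O. violaceus* in 19.7%. Among genes with 50 or more reads, where 24 of the copies lay and 16 of them showed the gap, these shares were 29.2% and 14.2%. On the deposited RPKM scale the gap was found in 17 copies, against 22.0% of all genes. The gap folds given for single copies are in TMM-scaled reads, and over the 25 copies with an *O. violaceus* read they were 1.16 to 1.70 times those in RPKM, with a median of 1.26. Of the 18, cyclase copy Bra002769 and esterase copy Bra032959 had no read in either *O. violaceus* library and at most 24 in a *B. napus* library, so that their gap has no lower bound of use.

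A quasi-likelihood test of edgeR with the 2 materials of each organism taken as its 2 libraries, though they are different plants and not replicates, called 16 of the 27 copies higher in *B. napus* and 0 lower, where a call needed an adjusted p of at most 0.05 with a 2-fold difference. Over all genes it called 14.2% higher and 12.4% lower. The copies that passed the filter through *B. napus* alone were among those tested. At an unadjusted p below 0.05 there were 18 copies and 11766 of the 28246 genes. The median log2 fold change was 3.00 over the 27 copies, of which 25 lay above 0 and 2 below, and 0.36 over all genes, of which 55.7% lay above 0. With the 2 copies that had no *O. violaceus* read set to their 3-read floor in each library, the median of the copies was 2.60. The calls rested on single libraries, where a lone library was assumed to vary like the 2 of the other organism. Without M4 the test called 0 copies and 0 of 26149 genes, without OvP 0 copies with 5 genes higher and 321 lower, without OvW 6 copies, and without H3 13 copies.

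**Figure D2:**
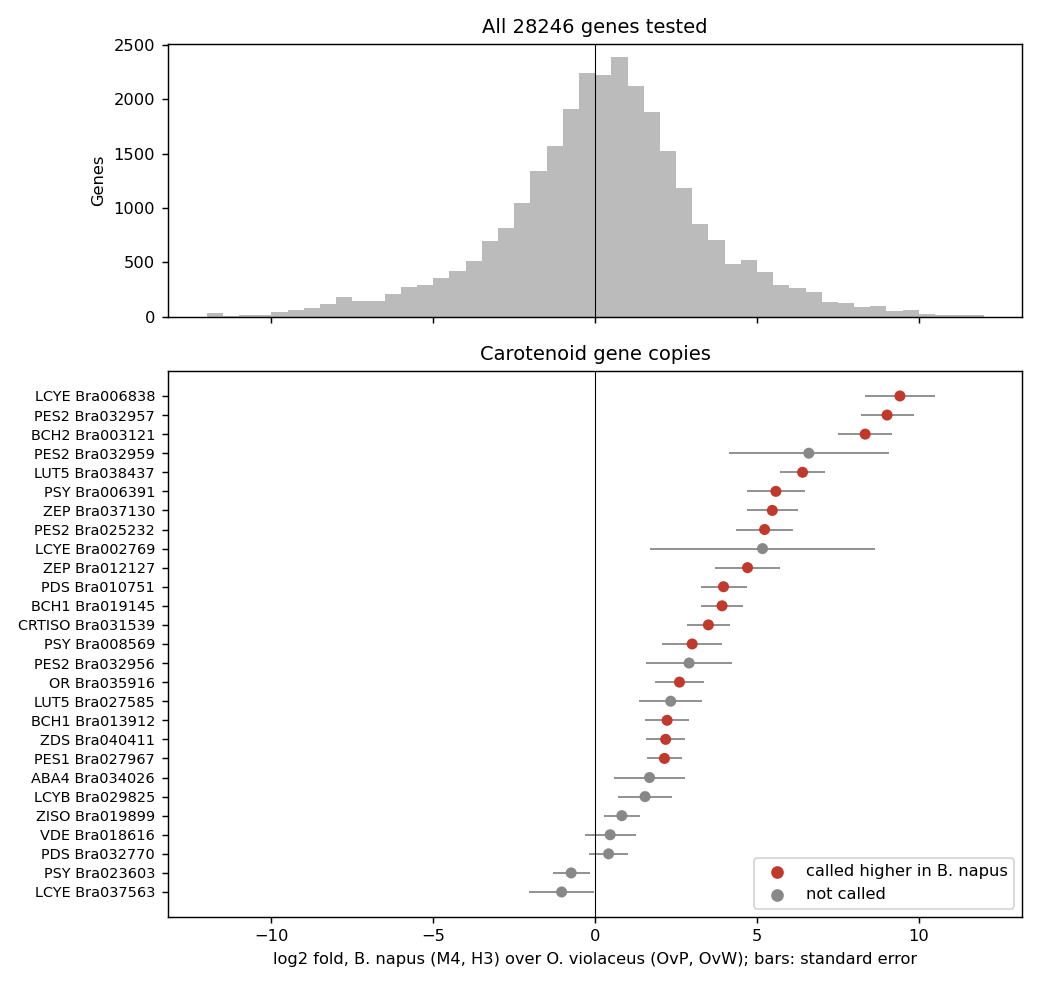
The upper panel is a histogram of the log2 fold change of *B. napus* (M4, H3) over *O. violaceus* (OvP, OvW) for all 28246 genes tested, and the lower panel shows the same x axis for 27 carotenoid gene copies, with bars for the standard error of the quasi-likelihood fit. Red points are the 16 copies called higher, and the copies run up to 9.42 (LCYE Bra006838), while only PSY Bra023603 and LCYE Bra037563 lie below 0.

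PSY (AT5G17230) catalyses the step that commits the pathway to carotenoids, and its 3 copies with more than a single read behaved differently between the organisms. Bra006391 on chromosome A03 had an RPKM of 946 and 642 in the M4 and H3 libraries, against 32.7 and 7.74 in those of OvP and OvW, and the gap between the nearest libraries was 33.0-fold in TMM-scaled reads (26.4 to 41.9) and 19.6-fold in RPKM. Its log2 fold change over *O. violaceus* was 5.58 ± 0.90 (SE, quasi-likelihood adjusted p = 0.00812). Bra008569 on A10 had an RPKM of 241 and 44.7 in the M4 and H3 libraries, against 32.7 and 8.28 in those of OvP and OvW, and was called higher at a log2 fold change of 3.00 ± 0.92 (SE, quasi-likelihood adjusted p = 0.048). Bra023603 on A02 ran the other way, at 20.3 and 10.1 in the M4 and H3 libraries, against 33.4 and 26.2 in those of OvP and OvW, and was not called, with a log2 fold change of -0.74 ± 0.57 (SE). For Bra008569 the nearest libraries, H3 and OvP, were 2.33-fold apart in TMM-scaled reads but 1.37-fold in RPKM and 1.39-fold in reads scaled to library totals, and of the *B. napus* libraries M4 was the high one. The remaining copy, Bra036264 on A09, had 1 read in M4 and none elsewhere.

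The desaturases and isomerases, which turn phytoene into lycopene, formed the group with the smallest distance between the organisms, with a summed RPKM of 602 and 662 in the M4 and H3 libraries, against 135 and 177 in those of OvP and OvW. PDS (AT4G14210), the phytoene desaturase, had 2 copies. Bra010751 on A08 stood at 180 and 289 in the M4 and H3 libraries, against 16.1 and 22.2 in those of OvP and OvW (log2 fold change 3.97 ± 0.71 SE, quasi-likelihood adjusted p = 0.0102), whereas Bra032770 on A04 stood at 29.4 and 40.0 against 25.8 and 40.1. The libraries of the 2 organisms overlapped for Bra032770, with a log2 fold change of 0.42 ± 0.60 (SE). ZDS (AT3G04870), the zeta-carotene desaturase, had the most abundant single copy in *O. violaceus*, Bra040411 on an unplaced scaffold, with 311 and 293 in the M4 and H3 libraries, against 73.2 and 90.9 in those of OvP and OvW, a gap of 3.98-fold (log2 fold change 2.18 ± 0.59 SE, quasi-likelihood adjusted p = 0.0331). ZISO (AT1G10830) Bra019899, the zeta-carotene isomerase, had 33.3 and 21.8 against 17.3 and 19.8 and was not called. CRTISO (AT1G06820) Bra031539, the carotenoid isomerase that finishes lycopene, had 48.7 and 18.5 against 2.99 and 3.81 and was called higher (log2 fold change 3.50 ± 0.67 SE, quasi-likelihood adjusted p = 0.0121).

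The cyclases divide the pathway at lycopene, with LCYE (AT5G57030) leading to lutein and LCYB (AT3G10230) to both branches. LCYE Bra006838 on A03 had 4798 and 4704 reads for M4 and H3, against 0 and 2 for OvP and OvW, and its RPKM was 186 and 174 against 0 and 0.60. It was the copy with the highest log2 fold change, 9.42 ± 1.07 (SE, quasi-likelihood adjusted p = 0.00524), and the gap between the nearest libraries was 359-fold, with an interval as wide as 99.4 to 2967. The other 4 LCYE copies had at most 22 reads in any library, and of these Bra037563 on A01 was read in all 4 materials, with 22 reads for M4, 9 for H3, 4 for OvP and 5 for OvW. LCYB Bra029825 on A05, the single copy of its gene, had an RPKM of 38.6 and 82.7 in the M4 and H3 libraries, against 45.7 and 10.2 in those of OvP and OvW. Its libraries overlapped between the organisms and it was not called (log2 fold change 1.54 ± 0.84 SE). The ratio of summed LCYE to LCYB RPKM was 4.90 in M4 (4.56 to 5.26) and 2.12 in H3 (2.01 to 2.23), against 0.0416 in OvP (0.0112 to 0.109) and 0.257 in OvW (0.0955 to 0.595). LCYE thus lay above LCYB in the M4 and H3 libraries and below it in those of OvP and OvW. The *O. violaceus* ratios rest on 4 LCYE reads in OvP and 7 in OvW. For them a lower LCYE level and poorer mapping of LCYE reads cannot be told apart.

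**Figure D3:**
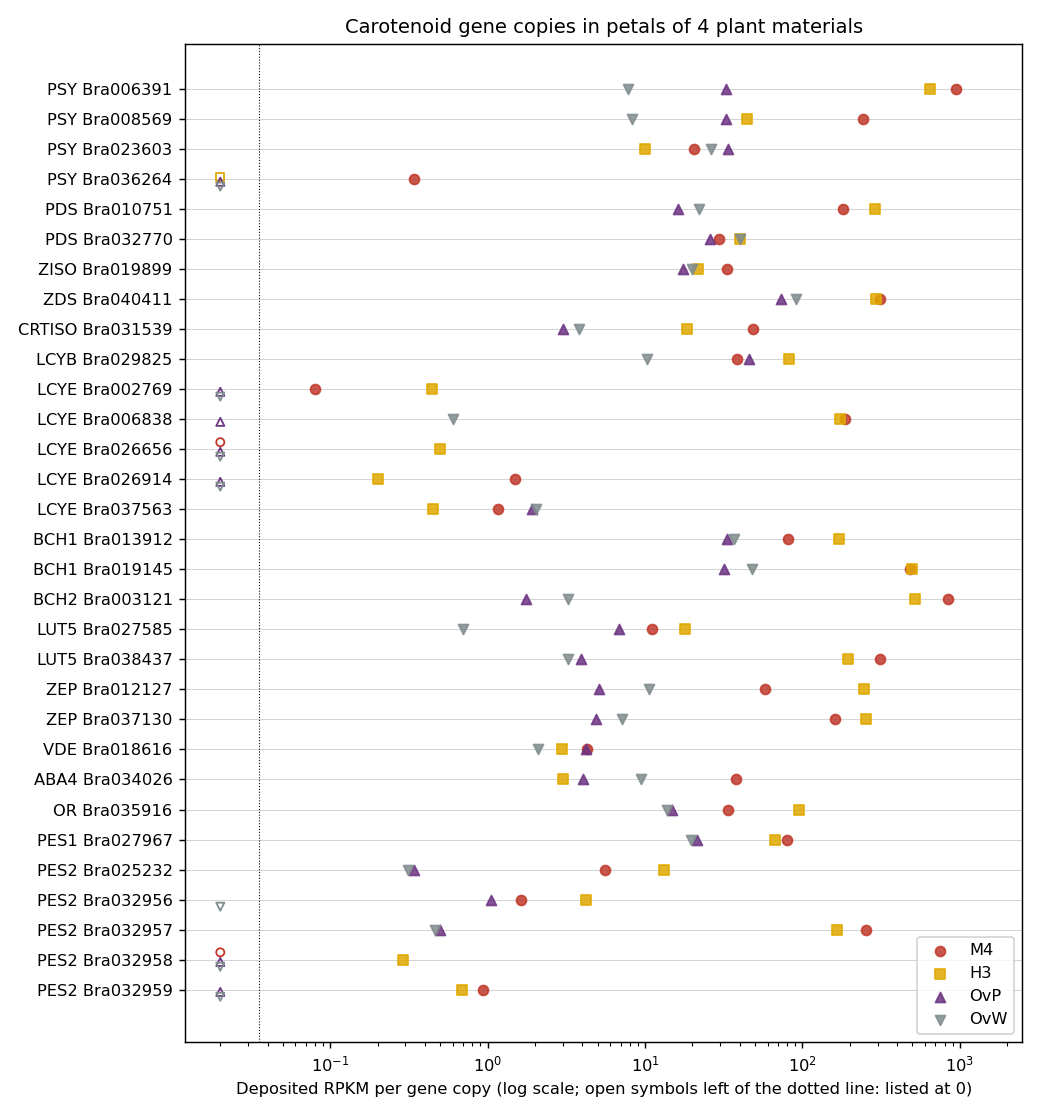
Each line is 1 of the 31 copies, and symbols give its deposited RPKM in the single libraries of M4, H3, OvP and OvW on a log x axis, with open symbols left of the dotted line for copies listed at 0. The B. napus symbols of LCYE Bra006838, BCH2 Bra003121 and PES2 Bra032957 lie at 167 or above, while their O. violaceus symbols lie at 3.23 or below.

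The ring hydroxylases, which make the xanthophylls, gave the largest summed RPKM of any step in *B. napus*, 1726 and 1398 in the M4 and H3 libraries, against 77.3 and 92.0 in those of OvP and OvW. BCH2 (AT5G52570) Bra003121 on A10, a beta-ring hydroxylase, had 12390 and 8004 reads in the M4 and H3 libraries, against 3 and 6 in those of OvP and OvW, and an RPKM of 843 and 518 against 1.74 and 3.23. Its log2 fold change was 8.34 ± 0.83 (SE, quasi-likelihood adjusted p = 0.00521) and the gap was 260-fold in TMM-scaled reads (120 to 710) and 160-fold in RPKM. BCH1 (AT4G25700), the sister hydroxylase of the same function, was much closer between the organisms. BCH1 Bra019145 on A03 had 481 and 497 in the M4 and H3 libraries, against 31.7 and 48.0 in those of OvP and OvW (log2 fold change 3.92 ± 0.66 SE, quasi-likelihood adjusted p = 0.00888). BCH1 Bra013912 on A01 had 80.5 and 170 against 33.1 and 36.8 (log2 fold change 2.22 ± 0.68 SE, quasi-likelihood adjusted p = 0.0473). The ratio of BCH2 to BCH1 was 1.5 in M4 (1.46 to 1.54) and 0.777 in H3 (0.755 to 0.800), against 0.0269 in OvP (0.00546 to 0.0807) and 0.0381 in OvW (0.0138 to 0.0848). Nearly all hydroxylase reads of this type in *O. violaceus* therefore fell on BCH1.

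LUT5 (AT1G31800), a cytochrome P450 that hydroxylates beta rings on the way to lutein, had 2 copies. Bra038437 on A08 had 311 and 195 in the M4 and H3 libraries, against 3.89 and 3.24 in those of OvP and OvW, with a log2 fold change of 6.41 ± 0.70 (SE, quasi-likelihood adjusted p = 0.00524). The gap was 84.7-fold in TMM-scaled reads (48.5 to 164) and 50.2-fold in RPKM. Bra027585 on A09 had 11.1 and 17.9 against 6.88 and 0.70 and was not called between the organisms (log2 fold change 2.33 ± 0.98 SE).

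Among the genes of the epoxide xanthophylls, only ZEP stood apart between the organisms. ZEP (AT5G67030) converts zeaxanthin to violaxanthin. Its copy Bra037130 on A09 had 161 and 252 in the M4 and H3 libraries, against 4.87 and 7.12 in those of OvP and OvW (log2 fold change 5.47 ± 0.78 SE, quasi-likelihood adjusted p = 0.00641), and its copy Bra012127 on A07 had 58.2 and 245 against 5.12 and 10.6 (log2 fold change 4.71 ± 1.01 SE, quasi-likelihood adjusted p = 0.0164). VDE (AT1G08550) Bra018616, which catalyses the reverse reaction under strong light, was among the genes with the lowest levels, at 4.29 and 2.95 against 4.24 and 2.1, and its log2 fold change was 0.46 ± 0.79 (SE). ABA4 (AT1G67080) Bra034026, needed for neoxanthin in Arabidopsis, had 38.1 and 2.99 in the M4 and H3 libraries, against 4.01 and 9.49 in those of OvP and OvW. For VDE and ABA4 the ranges of the organisms overlapped and neither was called.

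The last group covers storage and esterification, where OR (AT5G61670), known from cauliflower and Arabidopsis for the stability of PSY protein and chromoplast formation, was higher in *B. napus*. OR Bra035916 had 33.8 and 94.7 in the M4 and H3 libraries, against 14.8 and 13.8 in those of OvP and OvW (log2 fold change 2.60 ± 0.77 SE, quasi-likelihood adjusted p = 0.042). PES1 (AT1G54570) and PES2 (AT3G26840) are phytyl ester synthases in Arabidopsis, and a tomato relative is needed for xanthophyll esters in petals. PES1 Bra027967 had 80.1 and 66.9 in the M4 and H3 libraries, against 21.4 and 19.5 in those of OvP and OvW, a gap of 4.64-fold (log2 fold change 2.14 ± 0.55 SE, quasi-likelihood adjusted p = 0.0272). PES2 Bra032957 on A02 had 8646 and 5954 reads against 2 and 2, and an RPKM of 255 and 167 against 0.50 and 0.46 (log2 fold change 9.02 ± 0.82 SE, quasi-likelihood adjusted p = 0.00521). The gap was 559-fold in TMM-scaled reads (155 to 4620) and 334-fold in RPKM. The copy is 1 of 4 with consecutive identifiers on A02, Bra032956 to Bra032959, so reads may be divided uncertainly among them. PES2 Bra025232 on A06 had 5.56 and 13.2 against 0.34 and 0.31 and was also called higher (log2 fold change 5.23 ± 0.89 SE, quasi-likelihood adjusted p = 0.00911). The ratio of PES2 to PES1 was 3.28 in M4 (3.14 to 3.43) and 2.77 in H3 (2.64 to 2.90). In OvP it was 0.0882 (0.0390 to 0.176) and in OvW 0.0394 (0.0125 to 0.0957), on 9 and 5 PES2 reads. LCYE, BCH2 and PES2 were thus each carried by 1 abundant copy in *B. napus* that was nearly without reads in *O. violaceus*, while their partners LCYB, BCH1 and PES1 were read in both organisms. The abundant copies of LCYE, BCH2 and PES2, like PES2 Bra025232, passed the 10-read filter through the *B. napus* libraries alone. Their place among the calls is therefore partly set by the filter. For them a lower level in *O. violaceus* and poorer mapping cannot be told apart.

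The question of the second comparison was how the copies differed between the red on yellow petals of M4 and the yellow petals of H3. An exact binomial test of TMM-scaled reads, where a copy was called if its unadjusted p was at most 0.01 and the difference at least 2-fold, called 3 of the 31 copies higher and 10 lower in M4, and 18 were not called. Over all 34286 genes tested, 29.0% were called in either direction, 16.2% higher and 12.7% lower, and among genes with 50 or more reads in the pair, 40.2% were called, beside 12 of the 24 copies at this depth. The 27 copies with 10 or more reads in the pair had a median fold of 0.829, against 1.04 over the 25546 genes with as many. Over the 28649 genes with a read in both libraries, scaling by total reads put the median log2 fold at 0.39 instead of 0.00, and under it 6 copies were called lower instead of 10, with Bra002769, Bra010751, Bra027585 and Bra037130 losing their call. With a biological coefficient of variation of 0.4 assumed between libraries, 1 copy was called higher (ABA4) and 1 lower (ZEP Bra012127). Photosynthetic marker genes of green tissue also moved, with 0 of 20 copies called higher and 13 lower in M4 and a summed RPKM of 551 in M4 and 1552 in H3. Their part in the differences of the carotenoid copies was not tested, and fewer cells of a type and less RNA per cell cannot be told apart in whole petals.

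The 3 copies that rose in M4 belong to different steps. ABA4 Bra034026 had 404 reads in M4 against 33 in H3, a fold of 9.95 (6.97 to 14.7), the largest of the 3 rises. PSY Bra008569 had 4971 against 966 reads, a fold of 4.18 (3.90 to 4.48), whereas the main PSY copy Bra006391 had 18997 against 13540 reads, a fold of 1.14 (1.12 to 1.17) that missed the call. CRTISO Bra031539 had 1390 against 554 reads, a fold of 2.04 (1.85 to 2.25), close to the threshold. Summed over copies, PSY had a fold of 1.35 (1.32 to 1.37) and was not called. The deposited RPKM of PSY, which is scaled to mapped reads and not by TMM, was 1208 in M4 against 697 in H3.

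The copies that fell in M4 were spread over desaturation, cyclisation, hydroxylation, epoxidation, storage and esterification. Both ZEP copies were among them, with 1883 reads in M4 against 8331 in H3 for Bra012127, a fold of 0.184 (0.175 to 0.193), and 7014 against 11536 for Bra037130, a fold of 0.494 (0.480 to 0.509). OR Bra035916 had 499 against 1472 reads, a fold of 0.275 (0.248 to 0.305). LCYB Bra029825 had 921 against 2075 reads, a fold of 0.361 (0.333 to 0.390), while the abundant LCYE copy was not called, at a fold of 0.829 (0.796 to 0.863). The ring that LCYB closes is hydroxylated by BCH1, and its copy Bra013912 had 1120 against 2484 reads, a fold of 0.366 (0.341 to 0.393), while the larger copy Bra019145 had 7002 against 7601 and was not called at 0.749 (0.725 to 0.773). PDS Bra010751 had 4852 against 8187 reads, a fold of 0.482 (0.465 to 0.499), and LUT5 Bra027585 had 248 against 421, a fold of 0.479 (0.408 to 0.561). Both lay near the threshold.

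Among the esterases, PES2 Bra025232 had 418 against 1043 reads, a fold of 0.326 (0.290 to 0.365), and Bra032956 had 52 against 143, a fold of 0.296 (0.211 to 0.409). LCYE Bra002769 was called lower on 2 against 12 reads, with a wide interval. The abundant copies of PES2, BCH2 and LUT5 were not called, at folds of 1.18 for Bra032957, 1.26 for Bra003121 and 1.23 for Bra038437. Summed over copies, PDS (0.492), LCYB (0.361), ZEP (0.364) and OR (0.275) fell and CRTISO and ABA4 rose, and the other 10 genes were not called.

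**Figure D4:**
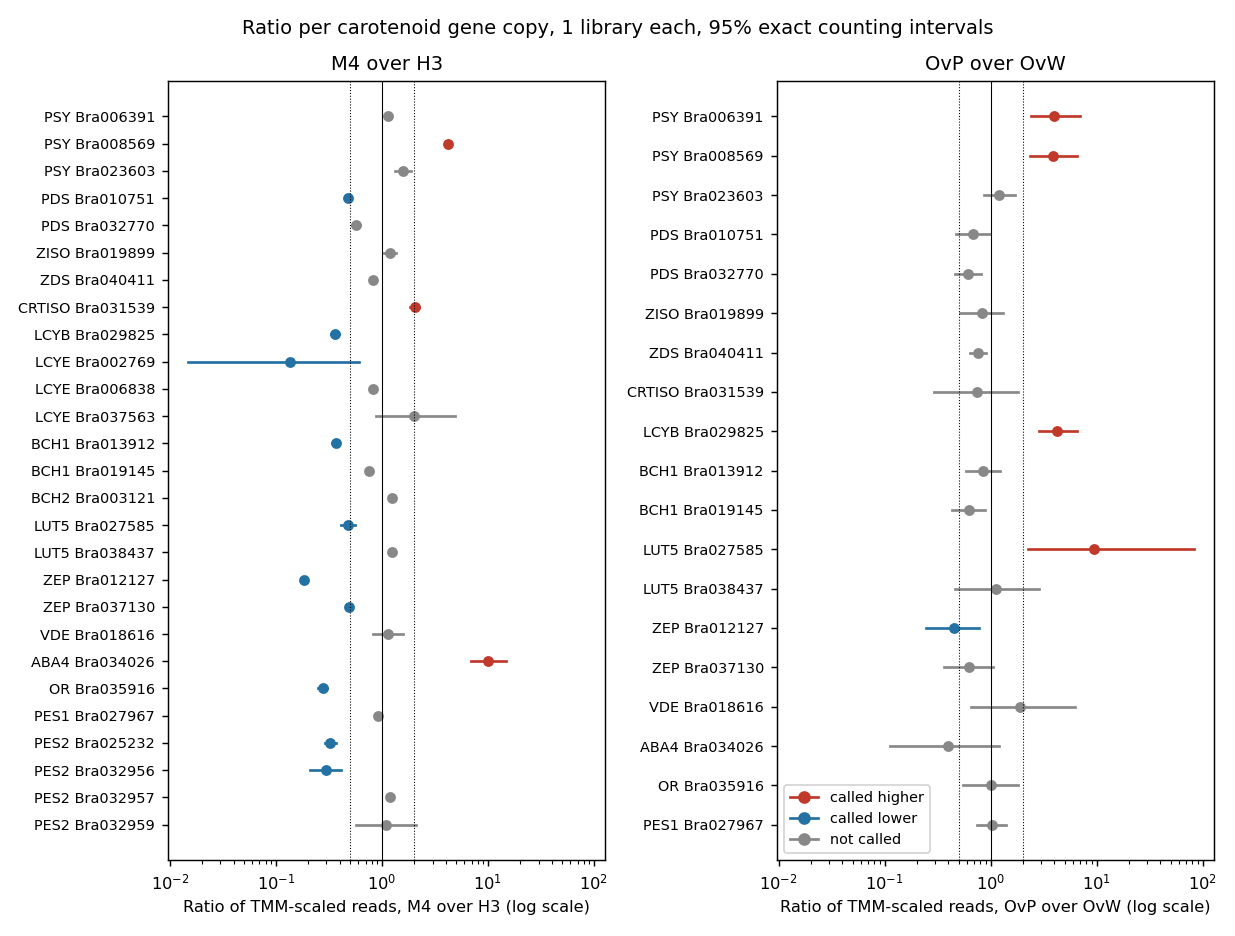
Points give the ratio of TMM-scaled reads of M4 over H3 (left, 27 copies) and of OvP over OvW (right, 19 copies) on a log x axis for copies with 10 or more reads in the pair, bars are 95% exact counting intervals, and dotted lines mark 0.5 and 2. ABA4 lies furthest right in the left panel at 9.95, and LCYB lies left of 0.5 in the left panel (0.361) and right of 2 in the right panel (4.26).

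Between purple and white *O. violaceus* petals, 25 copies had a read and 19 had 10 or more, so that small differences were not detectable at this depth. Of the 25, 4 were called higher in OvP, 1 lower and 20 not, against 11.4% of all 33743 genes called in either direction, 5.60% higher and 5.76% lower. Among genes with 50 or more reads in the pair, 23.8% were called, beside 4 of the 14 copies at this depth. With a coefficient of variation of 0.4 assumed, 0 copies were called in this pair. Green tissue markers had 0 of 21 copies higher and 17 lower in OvP, with a summed RPKM of 1419 in OvP and 5212 in OvW, and their part in these differences was not tested. The median fold was 0.850 over 19 copies and 1.0 over all genes with 10 or more reads in the pair.

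PSY accounted for 2 of the rises. Bra006391 had 77 reads in OvP against 20 in OvW, a fold of 4.0 (2.42 to 6.91), and Bra008569 had 78 against 21, a fold of 3.86 (2.36 to 6.58). The third PSY copy, Bra023603, had 79 against 68 reads and was not called, at 1.21. LCYB Bra029825 had 127 against 31 reads, a fold of 4.26 (2.86 to 6.52), and LUT5 Bra027585 had 18 against 2, a fold of 9.35 with an interval of 2.24 to 83.1. ZEP Bra012127 was the copy that fell, with 19 against 44 reads and a fold of 0.449 (0.247 to 0.785). Summed over copies, PSY rose by a fold of 2.23 (1.77 to 2.83), LCYB by 4.26 and LUT5 by 2.40 (1.21 to 5.01), and 0 genes fell. The LUT5 sum rested on Bra027585, since Bra038437 had 12 against 11 reads (1.13), and under the size factors of DESeq2 it was not called, at a fold of 2.31. Most other members were near even or below 1 without a call, such as ZDS with 233 against 318 reads (0.761), PDS Bra032770 with 82 against 140 (0.609), and PES1 with 84 against 85 (1.03).

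How the reads of a gene were divided among its copies differed between the organisms for several genes. For PSY, the A03 copy Bra006391 took 77.9% and 92.0% of the reads for M4 and H3, against 32.9% and 18.3% for OvP and OvW, and the A02 copy Bra023603 took 1.68% and 1.44% against 33.8% and 62.4%. For PDS, Bra010751 led in *B. napus*, with 85.8% in M4 and 87.7% in H3, while Bra032770 led in *O. violaceus*, with 61.7% in OvP and 64.5% in OvW. For LUT5, Bra038437 took 97.1% in M4 and 92.8% in H3, against 40.0% of 30 reads in OvP and 84.6% of 13 reads in OvW. ZEP was more even, with Bra037130 at 78.8% and 58.1% in the M4 and H3 libraries, against 55.8% and 47.6% in those of OvP and OvW. The 9 PES2 reads of OvP and 5 of OvW were too few to read a division from. These shares are not corrected for copy length, and reads shared by near-identical copies may have been assigned unevenly. Reads of *O. violaceus* were placed on *B. rapa* copies. For that organism, use of a copy and better mapping to it cannot be told apart, so the shares do not show a switch of copies.

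**Figure D5:**
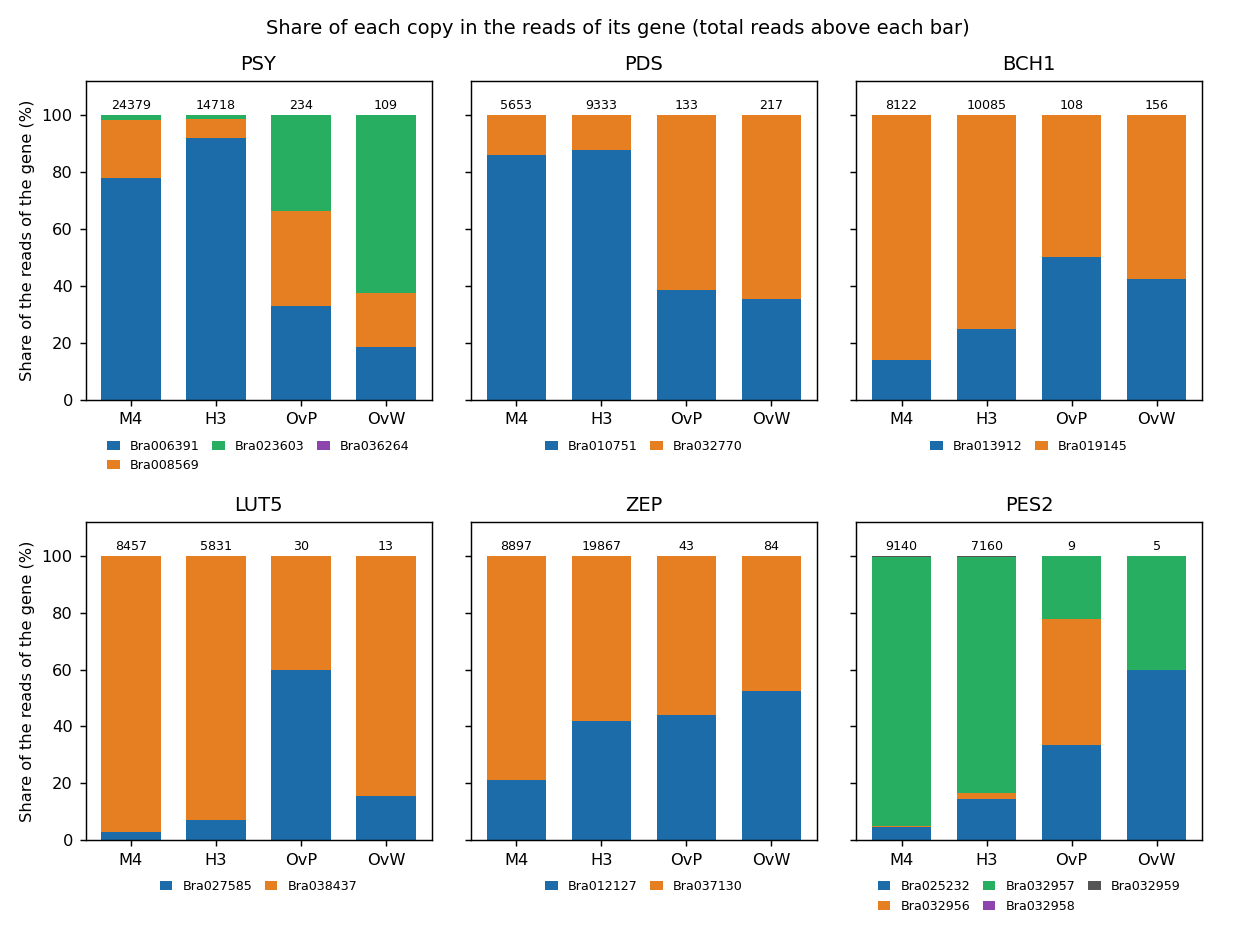
Stacked bars give the percentage of the reads of a gene on each copy in M4, H3, OvP and OvW for 6 genes with several copies, and the number above a bar is the reads of the gene. PSY Bra006391 takes 77.9% and 92.0% in the M4 and H3 bars but 32.9% and 18.3% in those of OvP and OvW, and the O. violaceus bars of PES2 rest on 9 and 5 reads.

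Genes around the pathway gave other patterns, and these lists were drawn up with earlier results of the data known. The isoprenoid supply genes, which make the geranylgeranyl diphosphate that PSY uses, had 20 copies, and their summed RPKM was 1724 and 1985 in the M4 and H3 libraries, against 8563 and 10752 in those of OvP and OvW. Of the 18 of these tested between the organisms, 0 were called higher and 10 lower in *B. napus*, beside 14.2% and 12.4% of all genes. Examples are DXS Bra001832, the gateway enzyme of the plastid route, with an RPKM of 0.92 and 0.61 in M4 and H3 against 404 and 584 in OvP and OvW, and IPP1 Bra006354, an isopentenyl diphosphate isomerase, with 12.4 and 6.65 against 2186 and 1946. Between M4 and H3, 9 of 18 rose and 2 fell, beside 16.2% and 12.7% of all genes, and between OvP and OvW, 0 of 20 rose and 3 fell, beside 5.60% and 5.76%. GGPPS11 Bra011709, which makes the direct substrate of PSY, had 1 read in OvP against 33 in OvW, and 1270 reads in M4 against 341 in H3.

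The carotenoid cleavage genes had 16 copies, and 15 were tested between the organisms, of which 0 were called higher and 7 lower in *B. napus*, beside 14.2% and 12.4% of all genes. CCD4 makes petals white in *B. napus* where it is active. Its copy Bra020970 had an RPKM of 0.15 and 0.24 in M4 and H3 against 77.6 and 94.4 in OvP and OvW. The other CCD4 copy, Bra013378, had 14.5 and 7.58 against 52.9 and 36.5 and was not called. A part of CCD4 in the petal colours of these materials was not tested. CCD1 Bra040449 had 430 and 545 against 218 and 260, and was not called. Between M4 and H3, 2 of 15 rose and 3 fell, beside 16.2% and 12.7% of all genes, and between OvP and OvW, 1 of 15 rose and 2 fell, beside 5.60% and 5.76%. The fibrillins coat the plastoglobules in which xanthophylls are stored. FBN1b Bra013602 had an RPKM of 9852 and 7051 in the M4 and H3 libraries, against 52.8 and 47.2 in those of OvP and OvW and was first by reads among all genes in M4 and in place 6 in H3. Of the 4 fibrillin copies, 2 were called higher and 2 lower in *B. napus*, beside the same 14.2% and 12.4% of all genes. FBN1a Bra000785 was among the lower ones, with an RPKM of 11.7 and 11.0 against 235 and 59.2, and it rose in OvP against OvW. Of 7 copies related to the members, 1 was called higher and 0 lower in *B. napus*, 1 rose and 1 fell in M4, and 0 rose and 1 fell in OvP, counts to be read beside the same shares of all genes.

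Of the 21 green tissue marker copies, those without a read numbered 1 for M4, 1 for H3, 0 for OvP and 2 for OvW. The petal and stamen identity genes, which check the tissue, had summed RPKM of 6130 in M4 and 6845 in H3, and 7613 in OvP and 11691 in OvW. Anther and pollen markers reached at most 44.7 in any library and carpel markers at most 20.4.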

How the data were processed

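The authors sequenced petal RNA of M4, H3, OvP and OvW, with 1 library each, and mapped it to the *B. rapa* genome with TopHat. The deposited counts are raw whole-number reads per *B. rapa* gene. The deposited RPKM values are scaled to gene length and to mapped reads, with a length shorter than the listed gene length (median ratio 1.55 to 1.67), and the study calls them FPKM. DESeq, Cufflinks and Cuffdiff are also named, without versions, and for the counter, strand setting and genome version the sources used here give nothing. The read column of M4 carried a code and was matched through its label. As a check, the ratio of M4 RPKM to M4 reads, relative to the same ratio in H3, had a median of 1.05 over 14978 genes (central 95% 1.04 to 1.06).

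The rule for taking copies used no expression value beyond the read in at least 1 library that every listed gene has. The 17 genes, the lists and the thresholds were chosen with earlier results of these data known. Every gene with 1 read or more over a pair entered binomTest of edgeR 4.0.16 under R 4.3.3, with TMM scaling. The design named the edgeR exact test at a dispersion of 0, for which binomTest stands. The organisms were compared with estimateDisp, glmQLFit and glmQLFTest, using Benjamini-Hochberg adjustment over genes with at least 10 reads, and SE is the log2 fold change over the square root of F. DESeq2 1.42.0 served as an alternative. Exact intervals of folds and gaps were computed in R, and those of read shares and gene ratios with SciPy 1.17.1. Tables came from pandas 2.3.3 with numpy 2.4.6 and plots from matplotlib 3.10.9. SciPy and these tools ran under Python 3.11.15.

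Named copies were, for each gene, the copy with most reads in M4 and H3, the copy with most reads in OvP and OvW, and every copy called in a comparison. From related lists, called copies with most reads and copies of known role in petals were named, the second kind after their values were seen, as were the background shares among genes with 50 or more reads. Alternatives were total-read and DESeq2 scaling, assumed biological coefficients of variation of 0.2 and 0.4, petal anthocyanin colour as a second term beside organism, other filters, RPKM in place of counts, and each library left out. The pair test at a dispersion of 0 and the quasi-likelihood test were run on simulated data first. The Fisher-type test, the DESeq2 test and the runs with an assumed coefficient of variation were not. LUT1 was not analysed here.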

Additional observations from a re-analysis of the deposited data

Results flagged for a closer look

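The ratio of the M4 over H3 fold to the OvP over OvW fold was set against 1 by a Fisher-type exact test conditional on the 4 read totals, with Benjamini-Hochberg adjustment over 17341 genes, and it holds counting error only. A copy passed at an adjusted p of at most 0.05 with a ratio of at least 2 or at most 0.5. This held for 8 of the 19 copies tested, against 35.4% of all genes tested. The folds of both pairs differed for PSY Bra006391 (ratio 0.285, adjusted p = 3.7e-07), which was called only in OvP, and for ZEP Bra012127 (0.409, adjusted p = 0.00653), which fell in both pairs but further in M4. LCYB Bra029825 (0.0847, adjusted p = 1.3e-42) and LUT5 Bra027585 (0.0512, adjusted p = 8.75e-07) fell in M4 and rose in OvP. BCH1 Bra013912 (0.431, adjusted p = 5.95e-05) and OR Bra035916 (0.276, adjusted p = 6.56e-05) fell in M4 and were not called in OvP. ABA4 Bra034026 (24.9, adjusted p = 1.48e-08) and CRTISO Bra031539 (2.75, adjusted p = 0.0373) rose in M4 and were not called in OvP. By contrast PSY Bra008569, which rose in both pairs, had a ratio of 1.08 (adjusted p = 0.808).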

How the results depend on the processing

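No paired analysis was possible because each material had 1 library, so that no replicate numbers pair samples. With petal anthocyanin colour as a second term (M4 and OvP against H3 and OvW), 17 copies were called higher in *B. napus*, and over all genes 5536 higher and 4677 lower. Of 64 alternative values of the counts of calls that were above 0, 45 kept within 1.5 times of the reported count. Copies higher in M4 (3) became 1 at an assumed coefficient of variation of 0.4 and 7 by a 2-fold RPKM difference without a test. Copies lower in M4 (10) became 6 with total reads, 6 at 0.2 and 1 at 0.4. Gene sums higher in M4 (2) became 1 at 0.2 and 1 at 0.4, and lower (4) became 0 at 0.4. Related-list calls became 3 of 20 between M4 and H3 and 2 of 9 between OvP and OvW, at 0.4. Copies higher in OvP (4) became 0 at 0.4, and the copy lower (1) became 0 at 0.2 and at 0.4 and 3 by RPKM. Gene sums higher in OvP (3) became 1 at 0.2 and 0 at 0.4, and 2 with DESeq2 size factors (LUT5 lost) and 2 with the leading copy alone. At 0.4 the calls of ABA4 Bra034026 (higher) and ZEP Bra012127 (lower) in M4 were the ones kept. At 0.2, Bra002769, Bra010751, Bra027585, Bra031539 and Bra037130 lost their call in M4, and ZEP Bra012127 lost it in OvP. Copies called higher in *B. napus* (16) ranged from 0 to 13 when 1 library was left out, and over all genes the counts called higher and lower were 4004 and 3514, against 2678 and 2560 without H3, 910 and 1550 without OvW, and 3156 and 3793 with total reads. Ratios crossed 1 with total reads for LCYE Bra006838 (1.08), PES1 Bra027967 (1.21) and ZDS Bra040411 (1.07) in M4 over H3 and OR Bra035916 (1.06) in OvP over OvW, and with DESeq2 size factors for PES1 Bra027967 in OvP over OvW (0.988). With total reads PSY Bra023603 was also called higher in M4, at 2.05. The *O. violaceus* libraries had too few reads to show differences in the scarcer copies.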
